A study of Arabidopsis thaliana with 8 samples.

Results

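The genes described here are 33 Arabidopsis thaliana loci that dividing cells use to package and copy their DNA and to complete mitosis. They come from a list of locus identifiers drawn up with earlier results of these data known. The list as a whole was therefore not tested, and its genes are 33 of the 33602 gene rows in the count tables. The list holds 25 core histone genes (5 for H3.1, 8 for H4, 4 for H2A, 2 for the H2A.W variant and 6 for H2B), 5 mitosis genes (CYCB1;1, CYCB1;2, CDKB1;1, CDKB2;1 and KNOLLE) and 3 replication genes (PCNA1, MCM2 and MCM5). RNA came from whole seedlings, 6 days old, of the wild-type ecotype Col-0 and of pwr-2, a mutant of POWERDRESS (PWR), which acts with a histone deacetylase. All seedlings grew at 23 °C in short days (8 h light and 16 h dark), and part of them was moved to 27 °C for 2 h before harvest. Each of the 4 groups (Col-0 at 23 °C, Col-0 at 27 °C, pwr-2 at 23 °C and pwr-2 at 27 °C) has 2 biological replicates, each a pool of seedlings, which gives 8 libraries. The mutant group rests on a single allele, and a whole seedling contains few dividing cells among many that have stopped dividing. More dividing cells and more RNA per dividing cell therefore cannot be told apart in these bulk samples.

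Histones H2A, H2B, H3 and H4 form the protein core around which DNA is wrapped. Most are made during S phase, when the DNA is copied and the new strands need new nucleosomes, and H3.1 is the form of H3 placed at that time. PCNA1 encodes the ring that clamps DNA polymerase to its template, and MCM2 and MCM5 encode subunits of the helicase that opens the double helix. The B1 cyclins and the B-type cyclin-dependent kinases act from G2 into mitosis, and KNOLLE is the syntaxin that fuses vesicles into the new cell plate. In seedlings these genes are known as markers of the shoot and root meristems and of young leaves.

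Within each histone family the genes differ more in their coding sequences than in their products, most plainly for H3.1 and H4. Translated from the TAIR10.1 genome, the 5 H3.1 genes encode 1 identical protein of 136 residues while their coding sequences share only 80.3 to 89.5% of bases. The 8 H4 genes likewise encode 1 protein of 103 residues, with coding sequences 78.8 to 98.1% identical. The 4 H2A genes encode 4 distinct proteins (92.4 to 95.4% identical), and the 6 H2B genes encode 6 (84.7 to 97.3%). The H2A.W genes HTA6 and HTA7 encode longer proteins of 150 residues that share 74.7% of positions, with coding sequences 68% identical. Of the 33 genes, 14 lie within 100 kb of another on the list, in 5 groups. The largest spans 95.3 kb of chromosome 5 and holds AT5G59690 (H4), HTA6, HTB4 and AT5G59970 (H4).

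Short promoter motifs were spread unevenly over the families, and the windows below are shown because they carry these motifs. Each is read 5′ to 3′ on the gene's strand of TAIR10.1, ends at or before the annotated gene start, and has the motif in capitals. The window searched ran from 250 bases before to 50 bases after the start, on both strands, and no match overlapped a match to another of the motifs searched. The octamer CGCGGATC, a motif known from plant H3 and H4 genes, was present in 8 of the 33 windows against 40 of all 27438 protein-coding promoters (0.146%). The 8 were H3.1, H4, H2A and H2A.W genes, and AT1G09200 and HTA10 had 2 copies each.
AT1G09200 (H3.1), chr1:2972405-2972436: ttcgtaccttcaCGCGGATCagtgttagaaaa
AT1G09200 (H3.1), chr1:2972335-2972365: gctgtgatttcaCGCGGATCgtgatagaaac
AT5G59690 (H4), chr5:24051391-24051422: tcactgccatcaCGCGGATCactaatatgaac
HTA10 (H2A), chr1:18926725-18926756: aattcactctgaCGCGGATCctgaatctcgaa
HTA6 (H2A.W), chr5:24116317-24116348: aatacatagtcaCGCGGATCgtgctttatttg

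None of the 6 H2B windows held the octamer. All 6 held the hexamer ACGTCA, which was in 9 of the 33 windows and in 9.19% of all promoters. The other 3 windows with it were those of the H3.1 genes AT3G27360 and AT5G10400 and of the H4 gene AT1G07820, and AT5G10400 had the octamer as well. In HTB4 it lay after the gene start, and the other H2B genes had it upstream.
HTB1, chr1:2412895-2412924: tgagaaatatacACGTCAatgatcctcgtg
HTB2, chr5:7652892-7652921: tcaaaagtaaccACGTCAgctatccacgcc
HTB9, chr3:16898152-16898181: accaatattgacACGTCAtcgatcccgctt
HTB11, chr3:16914202-16914231: gtaatatattccACGTCAtcaatcctcgtg
AT2G28720, chr2:12326746-12326775: ctaacgtgatccACGTCAccaacgatactg

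The E2F site, searched as TTTCCCGC, TTTGGCGC, TTTCGCGC and TTTGCCGC, was in 5 of the 33 windows and in 1.76% of all promoters. It was found in MCM2 and MCM5, whose windows are shown because every pwr-2 library lay above every Col-0 library for both, and in HTB2 and a pair of H4 genes. The core AACGG of the mitosis-specific activator element was in 21 of the 33 windows and in 24.7% of all promoters. Most of the 21 were histone genes, all 5 H3.1 genes and 6 of the 8 H4 genes among them, and 3 were the mitosis genes CYCB1;1, CYCB1;2 and KNOLLE. CYCB1;2 had 4 copies upstream of its start.
MCM2, chr1:16970188-16970213: ttggcgccaataTTTCCCGCctaatc
MCM5, chr2:3527501-3527531: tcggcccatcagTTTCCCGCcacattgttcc
CYCB1;2, chr5:1861730-1861758: atttaatcatctAACGGcaacagatgaaa
KNOLLE, chr1:2711001-2711024: caaatggacgacAACGGatacatc

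Library totals ran from 7379650 to 15733741 counts. Levels are given as CPM, counts per 1000000 counts of a library, with the library's total scaled by the TMM method, which corrects for differences in composition. Organelle genes took 0.0374 to 6.77% of the counts, with the highest shares in replicate 1 of both 23 °C groups. PWR itself stood at 43.1 to 81.7 CPM in the Col-0 libraries and at 11.3 to 20.1 CPM in the pwr-2 libraries, with no overlap. Of 8 genes marking the shoot meristem and young organs, 6 had more than 3 counts in every library, and their summed level was 58 to 76.1 CPM. WUS, a defining gene of the stem cell niche, was at 0 in every library. Of 8 root meristem markers 5 were detected to the same extent, with summed levels of 58.4 to 79.1 CPM in Col-0 and 40.5 to 54.7 CPM in pwr-2. Most of that sum was SCR, named after its values were seen, with 39.5 to 57.4 CPM in Col-0 and 24.7 to 36 CPM in pwr-2. SHR, also named after its values were seen, did not overlap either (11.8 to 14.1 CPM in Col-0 and 8.39 to 11.3 CPM in pwr-2). Every pwr-2 library lay below every Col-0 library for 3.38% of all genes. NUC overlapped between genotypes (2.69 to 6.31 and 4.15 to 5.53 CPM). WOX5, a defining gene of the root stem cell niche, overlapped as well, at a very low level (0.507 to 1.09 and 0.651 to 1.24 CPM). The part of these tissues in the results below was not tested.

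All 33 genes were detected in every library, from 22 counts for CYCB1;1 in its lowest library to 2645 for HTB4 in its highest. Divided by gene length, the mean level over the 8 libraries ran from 2.26 CPM per kb for CYCB1;1 to 200 CPM per kb for HTB4, an H2B gene. Genes for the same protein differed widely. Among the 5 H3.1 genes the level per length ran from 9.98 CPM per kb in AT3G27360 to 98.5 in AT1G09200, and AT5G65360 followed at 94.5. AT3G27360 overlaps by 328 bases the gene AT3G27380 on the same strand, which had 399 to 1205 counts against its own 58 to 165, and the part of this overlap in its level was not tested. Among the 8 H4 genes it ran from 16.3 in AT1G07660 to 87.4 in AT5G59690, with AT3G53730 at 84.5. The leading H2A gene was HTA10 with 66.5 CPM per kb, and the H2A.W gene HTA6 stood at 73.2. The 5 mitosis genes lay between 2.26 and 14.4 CPM per kb and the 3 replication genes between 8.2 and 12.6, and AT3G27360 was the only histone gene whose level fell inside either range.

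**Figure D1:**
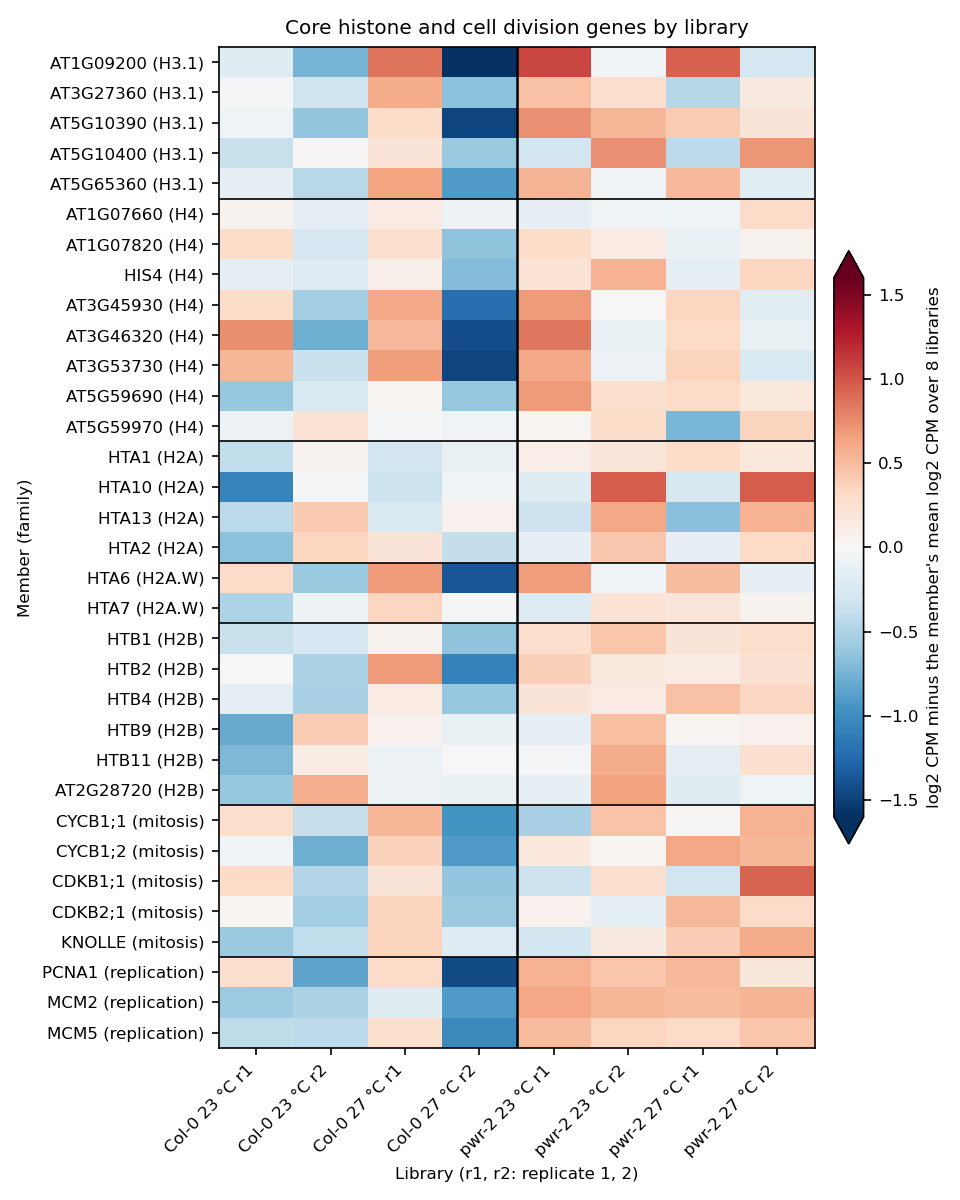
Heat map of the 33 genes (rows, grouped by family) in the 8 libraries (columns). Colour gives log2 CPM minus the gene's own mean log2 CPM over the 8 libraries, red above and blue below it. Replicate 2 of Col-0 at 27 °C is the bluest column, and it is the lowest library for 21 of the 33 genes.

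The first question was whether loss of PWR altered these genes at 23 °C. The summed level of the 33 genes was 907 and 893 CPM in the Col-0 libraries and 1286 and 1260 CPM in the pwr-2 libraries. The fitted log2 change, pwr-2 minus Col-0, was above 0 for 32 of the 33 genes, with a median of 0.45, beside 48.1% of all genes tested and a median of -0.02. It was above 0 in both replicate pairs for 29 genes, beside 24.9% of all genes, and the pair medians were 0.37 and 0.56. None of the 33 passed an adjusted p of 0.05 in the quasi-likelihood test of edgeR, with p adjusted over all genes by the method of Benjamini and Hochberg (lowest adjusted p = 0.976), and neither did any of the 19170 genes tested (0% called). DESeq2 also called none of the 33, among 51 genes (0.266%). With unadjusted p under 0.05 and a higher level in pwr-2 there were 5 of the 33, AT1G09200, AT5G10390, HTA10, MCM2 and MCM5, beside 1.79% of all genes, and none was lower. That count was 1 in DESeq2. In fits over 7 of the 8 libraries it ran from 1, with the first replicate of unwarmed Col-0 left out, to 8, with either replicate of warm Col-0 left out.

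**Figure D2:**
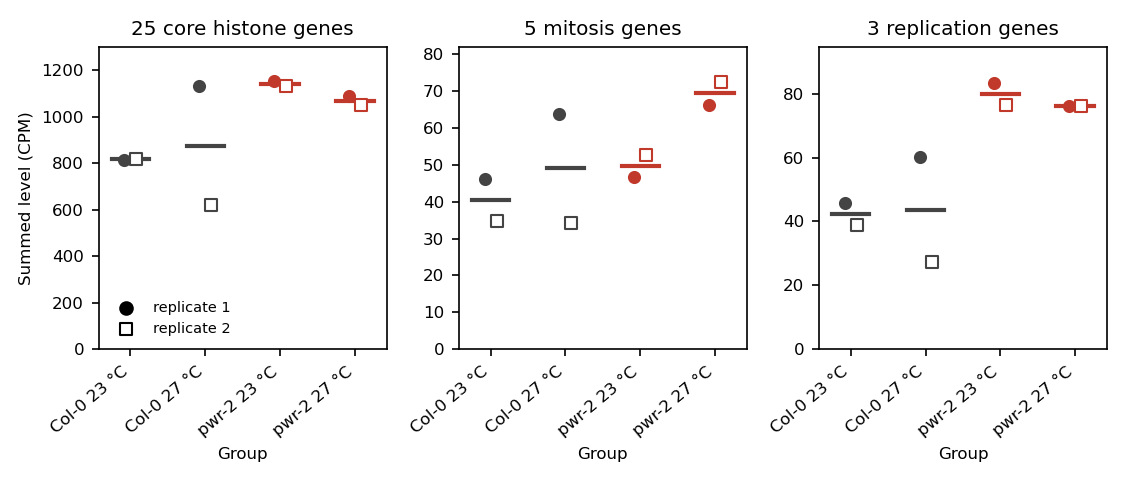
Summed CPM of the 25 core histone genes, the 5 mitosis genes and the 3 replication genes in each of the 4 groups; filled circles are replicate 1, open squares replicate 2 and bars the mean of the 2. For the replication genes the 4 pwr-2 libraries lie between 76.1 and 83.2 CPM and the 4 Col-0 libraries between 27.2 and 60.3 CPM.

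Among the families the replication genes had the highest median log2 change at 23 °C (0.83), and MCM2 had the largest single change. MCM5 (0.83) and PCNA1 (0.79) lay below AT1G09200, AT5G10390, HTA10 and AT5G59690 (0.88 to 0.97). MCM2 (AT1G44900, chr1:16970214-16974753) was at 15.6 and 16.4 CPM in Col-0 at 23 °C, 20.4 and 12.4 CPM in Col-0 at 27 °C, 35.8 and 33.7 CPM in pwr-2 at 23 °C and 33 and 34 CPM in pwr-2 at 27 °C. Every pwr-2 library was above every Col-0 library. The fitted log2 change at 23 °C was 1.11 ± 0.255 (SE, 2 libraries per group), a factor of 2.16, with an adjusted p of 0.976 in edgeR. MCM5 (AT2G07690, chr2:3522984-3527500) had 16 and 15.8 CPM, then 25.3 and 10.4 CPM, in the Col-0 groups at 23 and 27 °C. In pwr-2 it had 30.1 and 26.8 CPM, then 26.2 and 28.7 CPM, again without overlap between the genotypes. PCNA1 (AT1G07370, chr1:2263037-2264553) had 14.1 and 6.55 CPM in Col-0 at 23 °C and 14.6 and 4.37 CPM in Col-0 at 27 °C, so its Col-0 replicates stood far apart. In pwr-2 it had 17.3 and 16 CPM at 23 °C and 16.9 and 13.4 CPM at 27 °C, and replicate 1 of both Col-0 groups lay within that range.

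Over all 8 libraries, 5 of the 33 genes had every pwr-2 library above every Col-0 library, namely AT5G59690 (H4), HTA1, HTB1, MCM2 and MCM5. The same pattern held for 625 of 19936 genes (3.14%). None of the 33 had every pwr-2 library below, a pattern of 3.38% of all genes. Replicate 2 of Col-0 at 27 °C was then left out, a choice made after the values were seen. No further gene of the 33 met the pattern, where 3.54% of all genes did. The 5 could not drop out, because fewer Col-0 libraries make the pattern easier to meet.

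Among the histone families the median log2 change at 23 °C was 0.54 for H3.1, 0.28 for H4, 0.30 for H2A, 0.37 for H2A.W and 0.51 for H2B, each with no gene called. AT1G09200 (chr1:2971571-2972334), the leading H3.1 gene whose 2 octamers are shown above, had 44.3 and 30.4 CPM in Col-0 at 23 °C and 107 and 49.1 CPM in pwr-2. At 27 °C it had 91.8 and 16.7 CPM in Col-0 and 97.9 and 41.7 CPM in pwr-2, so the genotypes overlapped there. AT5G59690 (chr5:24051474-24052218), the leading H4 gene, had 32.5 and 42 CPM in Col-0 at 23 °C, where the pwr-2 libraries had 79.6 and 59.2 CPM. Its levels at 27 °C were 51.3 and 32.6 CPM in Col-0 and 61.2 and 55.6 CPM in pwr-2, the lowest pwr-2 library being above the highest of Col-0. HTB4 (chr5:24126877-24128162), the most abundant gene per length, had 142 and 109 CPM in Col-0 at 23 °C, where the pwr-2 libraries had 181 and 172 CPM. Its levels at 27 °C were 172 and 103 CPM in Col-0 and 216 and 197 CPM in pwr-2. The exception in direction was AT1G07660, an H4 gene with a fitted log2 change of -0.05 ± 0.288.

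At 27 °C the comparison of genotypes depended on single libraries, and most on replicate 2 of Col-0. Summed over the 33 genes, Col-0 stood at 1256 CPM in replicate 1 and 683 CPM in replicate 2, and pwr-2 at 1232 and 1199 CPM. Replicate 2 of Col-0 at 27 °C was the lowest library for 21 of the 33 genes, as it was for 16.5% of all genes. The fitted log2 change was above 0 for 29 of the 33 genes beside 49.1% of all genes, with a median of 0.43 beside -0.01. The pair medians were -0.11 and 0.94, and 13 genes were above 0 in the first pair, 33 in the second and 13 in both, beside 31.6% of all genes in both. None of the 33 was called, beside 202 of 19324 genes tested (1.05%), nor by DESeq2 among 931 (4.82%). MCM2 came nearest with a log2 change of 1.06 ± 0.298 and an adjusted p of 0.15 in edgeR. With unadjusted p under 0.05 it was the only one, beside 8.68% of all genes with a higher level. Leaving out replicate 2 of warm Col-0 gave a median of -0.11 with 12 genes above 0. Leaving out its replicate 1 gave 0.93 with all 33 above 0, of which 19 had an unadjusted p under 0.05. Leaving out replicate 1 or 2 of warm pwr-2 gave medians of 0.67 and 0.17.

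**Figure D3:**
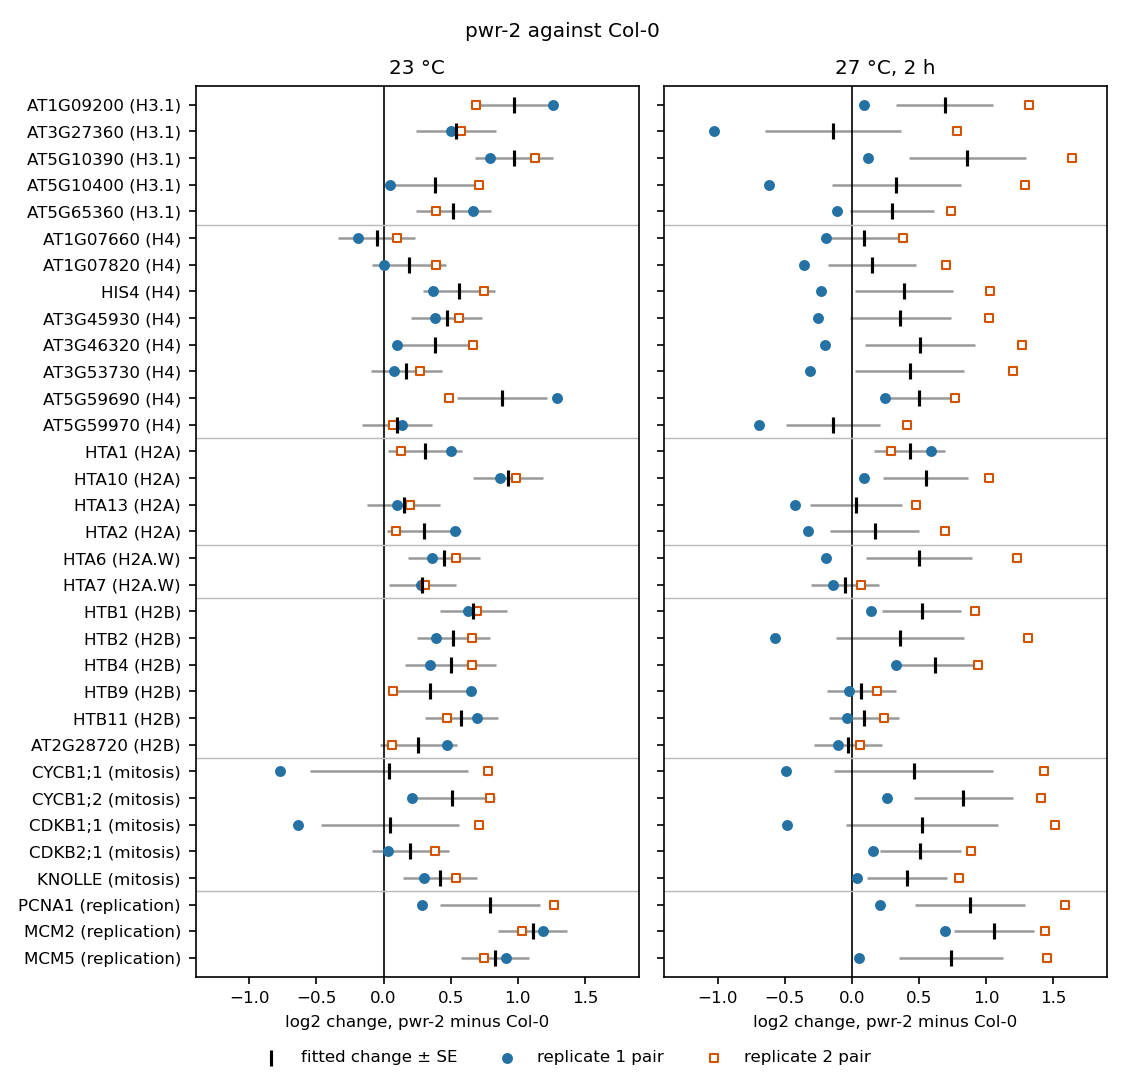
Log2 change, pwr-2 minus Col-0, for each of the 33 genes at 23 °C (left) and 27 °C (right). Black ticks and grey bars are the fitted change and its standard error, blue circles the difference within replicate 1 and orange squares that within replicate 2. At 23 °C both pairs lie on the positive side for 29 genes, and at 27 °C for 13.

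With both temperatures averaged in a fit over the 8 libraries, the log2 change between genotypes was above 0 for 32 of the 33 genes, beside 49% of all genes, with a median of 0.39 beside -0.01. The pair medians were 0.10 and 0.79. Above 0 were 22 genes in the first pair, 33 in the second and 22 in both, beside 28.3% of all genes in both. Leaving out replicate 2 of Col-0 at 27 °C left 22 genes above 0 and a median of 0.17. None was called (0% of 19936 genes), and 11 had an unadjusted p under 0.05 with the higher level in pwr-2, beside 7.99% of all genes. With 1 library left out this number ran from 3 (without replicate 2 of pwr-2 at 23 °C) to 22 (first replicate of warm Col-0 left out). The 11 were AT1G09200, AT5G10390, AT5G59690, HTA1, HTA10, HTB1, HTB4, CYCB1;2, PCNA1, MCM2 and MCM5. MCM2 had a log2 change of 1.08 ± 0.176 and an adjusted p of 0.173 in edgeR. DESeq2 called MCM2 (log2 change 1.09, adjusted p = 0.000676) and HTA10 (0.75, adjusted p = 0.0448) among 925 genes (4.64%). The interaction of genotype and temperature called none of the 33 (0% of all genes), and none had an unadjusted p under 0.05, beside 4.59% of all genes. DESeq2 called none of the 33 there, among 25 genes (0.125%).

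The other question was how 2 h at 27 °C affected these genes in each genotype. In Col-0 the replicate pairs went opposite ways. The log2 change, 27 °C minus 23 °C, had a median of 0.39 in the first pair, with 30 of 33 genes above 0, and of -0.40 in the second, with 3 above 0. The fitted median was 0.01 with 17 genes above 0, beside 49.7% of all genes. None was called (0% of 19386 genes) or had an unadjusted p under 0.05, beside 3.9% of all genes, and DESeq2 called none of the 33 among 37 genes (0.191%). Leaving out replicate 2 of warm Col-0 gave a median of 0.45, and leaving out its replicate 1 gave -0.48.

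In pwr-2 the pairs were close to each other, with medians of -0.12 and -0.08, and most histone genes lay below 0 and the mitosis genes above it. Of the 25 histone genes 21 had a fitted log2 change below 0 (median -0.18), beside 49.1% of all genes tested, and 16 were below 0 in both pairs, beside 31.2% of all genes. All 5 H3.1 genes were below 0 in both pairs, with fitted changes of -0.07 to -0.51. The 3 replication genes were at -0.15, -0.05 and -0.05. All 5 mitosis genes were above 0 in both pairs, with fitted changes of 0.30 to 0.56 and a median of 0.46. Single libraries turned the direction of the histone genes. Leaving out replicate 2 of pwr-2 at 23 °C, or replicate 1 of pwr-2 at 27 °C, left 11 of the 25 below 0, with medians of 0.05 and 0.03. The mitosis genes above 0 numbered 4 of 5 without replicate 1 of pwr-2 at 23 °C and 3 of 5 without replicate 2 of pwr-2 at 27 °C. None of the 33 was called, beside 80 of 19050 genes tested (0.42%), nor by DESeq2 among 645 (3.39%). The 3 genes with an unadjusted p under 0.05 were KNOLLE, CYCB1;2 and CDKB2;1, all higher at 27 °C, beside 10.6% of all genes, and in the fit over all 8 libraries and in DESeq2 none of the 33 was under 0.05.

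KNOLLE (AT1G08560, chr1:2709525-2711000) had 13.4 and 18.2 CPM in pwr-2 at 23 °C and 21.7 and 24.8 CPM at 27 °C. In Col-0 it had 10.9 and 12.5 CPM at 23 °C and 21.1 and 14.2 CPM at 27 °C. The fitted log2 change was 0.56 ± 0.155 in pwr-2 (adjusted p = 0.16 in edgeR) and 0.55 ± 0.287 in Col-0 (adjusted p = 0.943). Its gene overlaps by 464 bases the oppositely oriented NPQ1, which was named after its values were seen and ran from 275 to 4518 counts. Whether counting used the strand is not given in the sources used here, and the part of NPQ1 reads in the KNOLLE values was not tested.

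CYCB1;2 (AT5G06150, chr5:1859279-1861703) had 12.4 and 11.3 CPM in pwr-2 at 23 °C and 17 and 16 CPM at 27 °C. In Col-0 it had 10.7 and 6.43 CPM, then 14.2 and 5.89 CPM, and the temperatures overlapped. CDKB2;1 (AT1G76540, chr1:28720328-28722550) had 14.5 and 12.4 CPM in pwr-2 at 23 °C and 19.9 and 17.1 CPM at 27 °C. In Col-0 it had 14.2 and 9.52 CPM at 23 °C and 17.8 and 9.19 CPM at 27 °C. Both genes thus stood apart by temperature in pwr-2 alone, on 2 libraries against 2, and the share of all genes doing so was not counted. The fitted interactions were 0.29 ± 0.474 and 0.30 ± 0.354, neither passing the test. CYCB1;1 (AT4G37490, chr4:17621886-17624308), on 22 to 72 counts per library, had 2.38 and 4.68 CPM in pwr-2 at 23 °C and 3.47 and 5.05 CPM at 27 °C, and 4.16, 2.66, 4.93 and 1.77 CPM in the same order of Col-0 libraries. CDKB1;1 (AT3G54180, chr3:20059671-20061488) had 3.9 and 5.99 CPM in pwr-2 at 23 °C, 4.05 and 9.48 CPM at 27 °C, and 6.18, 3.59, 5.73 and 3.23 CPM in Col-0. For these 2 genes the widest spread between replicates was larger than any difference between group means.

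**Figure D4:**
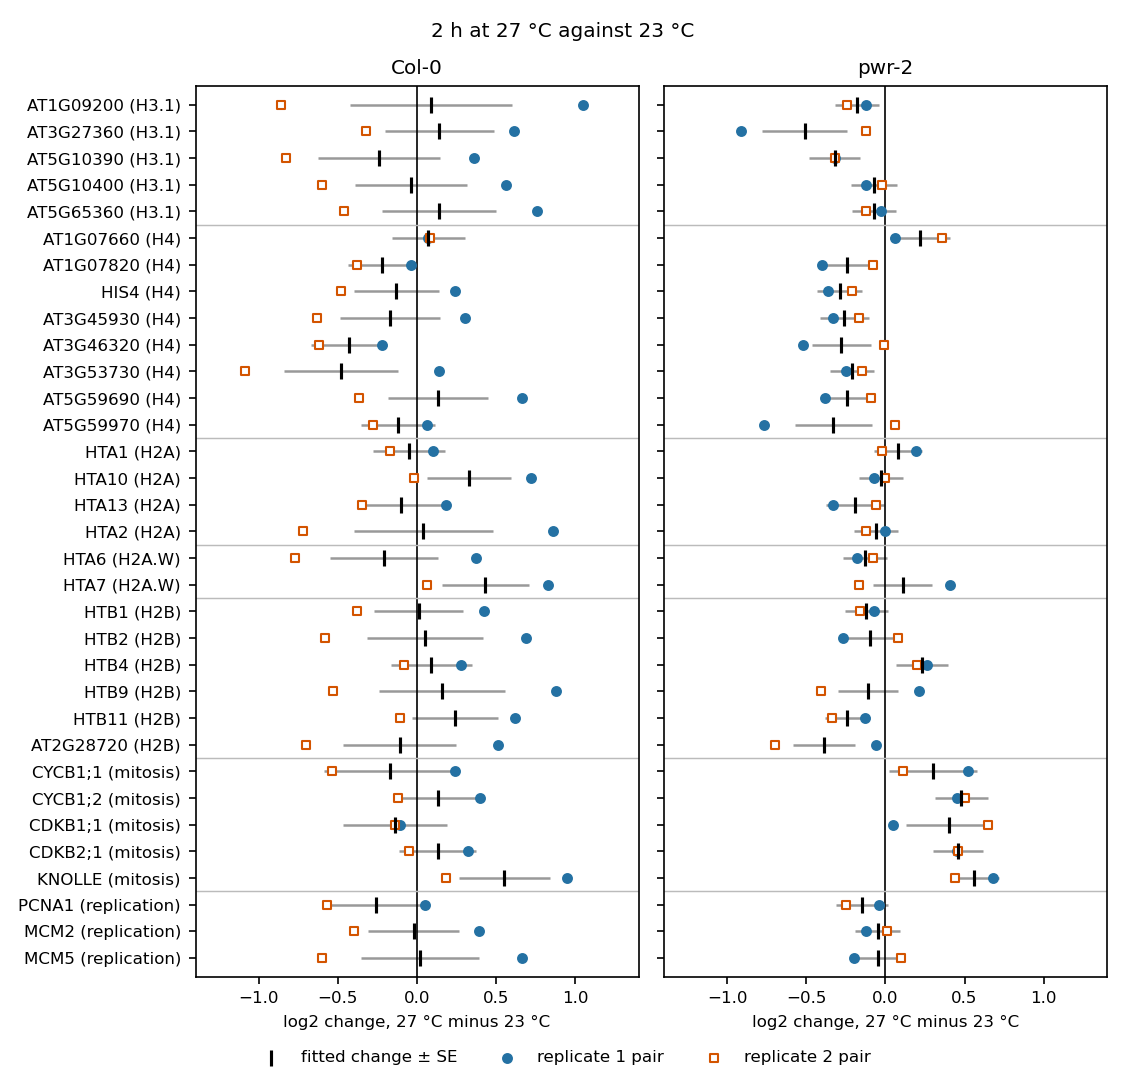
Log2 change, 27 °C minus 23 °C, for each of the 33 genes in Col-0 (left) and pwr-2 (right), with the fitted change and its standard error in black and grey, the replicate 1 pair as blue circles and the replicate 2 pair as orange squares. In Col-0 the 2 pairs lie on opposite sides of 0 for most genes, and in pwr-2 the 5 mitosis genes lie to the right of 0 in both pairs.

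Averaged over genotypes, the change with temperature had a median of 0.01 over the 33 genes and called none (0% of 19936 genes), nor did DESeq2, among 26 genes (0.13%). KNOLLE alone had an unadjusted p under 0.05, with a log2 change of 0.58 and a higher level at 27 °C, beside 2% of all genes. No gene of the 33 had all 4 libraries at 27 °C above all 4 at 23 °C or below them, patterns held by 0.722% and 0.617% of all genes.

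Differences between replicates split the histone genes. In all 4 groups replicate 2 was lower than replicate 1 for 11 of the 33 genes (33.3%, beside 20.7% of all genes), among them AT1G09200, AT5G10390 and AT5G65360 (H3.1), AT3G45930, AT3G46320 and AT3G53730 (H4), HTA6 and PCNA1. It was higher in all 4 groups for HTA10, HTA13 and HTB11 (9.09%, beside 21.9% of all genes). HTA10 (chr1:18926811-18927746) had 19.3 and 39.8 CPM in Col-0 at 23 °C, 31.9 and 39.2 CPM in Col-0 at 27 °C, 35.5 and 79.3 CPM in pwr-2 at 23 °C and 33.9 and 79.5 CPM in pwr-2 at 27 °C. AT1G09200 ran the other way in each of these groups. Both genes carry 2 octamers before their start, 1 of those in HTA10 on the opposite strand, and the part of this motif was not tested. The gap was widest in Col-0 at 27 °C, where 13 of the 33 genes (39.4%, beside 20.6% of all genes) differed by more than 2-fold between replicates and 29 were lower in replicate 2.

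Near-identical copies limit what single H4 loci can show. Windows of 90 bases, the read length, were searched in the genome, and 26 of the 33 genes had none in their exons that also occurred elsewhere. The H4 genes AT3G45930 and AT3G46320, with coding sequences 97.4% identical, had 14.2% and 15.5% of windows repeated, and AT1G07660 and AT1G07820 had 11% and 6.75%. Their split of reads is uncertain, since the handling of reads with several matches is not given in the sources used here. AT5G59690 and AT5G59970 are 97.1% identical but had under 1% of windows repeated, and stood at 32.5 to 79.6 CPM and 9.59 to 20.4 CPM.

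Lists of other cell-cycle genes were counted in the same fits, and no gene of any of them was called in any comparison. Of all genes tested, 48.1% were above 0 between genotypes at 23 °C, 49.1% at 27 °C and 49% averaged. With temperature in pwr-2 50.9% were above 0. How these lists depend on single libraries left out was not examined. Of 16 other S-phase genes 15 had a log2 change above 0 between genotypes averaged over temperatures, with a median of 0.76. Among them 13 had an unadjusted p under 0.05 in edgeR with the higher level in pwr-2, beside 7.99% of all genes. The median of this list was 0.85 at 23 °C, and in pwr-2 its change with temperature had a median of -0.26 with 3 of 16 above 0. Of 22 other G2 and M-phase genes tested, 21 had a log2 change with temperature above 0 in pwr-2, with a median of 0.45. In edgeR 6 had an unadjusted p under 0.05, all higher at 27 °C, beside 10.6% of all genes. In Col-0 11 of the 22 were above 0 with temperature, beside 49.7% of all genes, with a median of 0.03. The Col-0 pair medians were 0.48, with 17 above 0, and -0.36, with 4 above 0. Between genotypes that list had a median of 0.01 at 23 °C, with 12 of 22 above 0. At 27 °C the median was 0.47 with 21 above 0, but the pair medians were -0.25 and 1.11. There 5 genes were above 0 in the first pair, 21 in the second and 4 in both, beside 31.6% of all genes in both. Averaged over temperatures the median was 0.24 with 19 above 0, and 3 genes were above 0 in both pairs, beside 28.3% of all genes. Other histone genes, among them variants made outside S phase, had a median of 0.24 between genotypes averaged over temperatures, with 9 of 14 above 0. G1 and cell-cycle entry regulators had a median of 0.02 there, with 11 of 18 above 0. Of 9 cell-cycle inhibitors 3 were above 0 averaged, with a median of -0.07, and the counts were 0 at 23 °C (median -0.19) and 4 at 27 °C (median -0.11). At 23 °C 3 of the 9 were below 0 in both pairs, beside 26.3% of all genes. Averaged over temperatures 5 of the 9 were, beside 29.3%. With unadjusted p under 0.05 in edgeR and the lower level in pwr-2 there were 3 averaged, beside 1881 of 19936 genes. There were also 3 at 27 °C, beside 1579 of 19324 genes, and none at 23 °C.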

How the data were processed

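Per the labels and the study's methods, paired 90 bp reads from 8 libraries were filtered of rRNA, aligned to TAIR10 and counted per gene. The submitters' processing notes name TopHat2 2.1.0, Bowtie2 2.1.0, featureCounts 1.4.5 and DESeq2 1.14.1. The deposited values used are raw counts per gene, with the gene length deposited beside them, and a deposited table of normalized values was not used. No column of per-sample values was left unmapped (0).

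Here counts were tested with edgeR 4.0.16 in R 4.3.3 (TMM, filterByExpr, quasi-likelihood test, Benjamini-Hochberg adjusted p under 0.05), with the replicate number as a block because the study's methods model a batch between replicates. The SE of a log2 change was derived from the F statistic. Pairwise comparisons used 4 libraries, and the averaged and interaction contrasts used 8. Replicate-pair differences used log2 CPM with a prior count of 2. Same-numbered libraries deviated together, more within a genotype than between genotypes. The correlation of replicate differences across 19936 genes was 0.65 within Col-0, 0.56 within pwr-2 and 0.26 to 0.37 between genotypes. The fits were tested on simulated data, in which 200 genes had a log2 change of 2 up or down in warm pwr-2. The comparison of genotypes at 27 °C recovered 177 of the 200, with 8 false calls. The interaction recovered 66 of the 200, with 1 false call. Changes were planted only in genes above a minimum mean count, and no replicate effect was simulated. The largest fitted log2 change among the 33 genes was 1.11, so recovery of changes of their size was not tested. Values in every library are given for the leading gene per length of each core family and for the 8 non-histone genes, and other genes by range and counts. DESeq2 1.42.0, other normalizations and filters, nuclear genes alone, no block and each library left out were alternatives. The gene and motif lists were chosen with earlier results of these data known. Sequences and gene positions are from RefSeq TAIR10.1.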

Additional observations from a re-analysis of the deposited data

Results flagged for a closer look

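CDKB1;1 was singled out because its replicate pairs moved opposite ways with temperature in the 2 genotypes. The log2 change, 27 °C minus 23 °C, was -0.11 and -0.14 in the Col-0 pairs and 0.05 and 0.65 in the pwr-2 pairs. The fitted interaction was 0.54 ± 0.805 with an adjusted p of 0.956 in edgeR, so the difference did not pass the test.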

How the results depend on the processing

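No gene of the 33 was called in any of the 7 comparisons under any alternative but DESeq2, which called 2 between genotypes averaged over temperatures, where edgeR called 0. That comparison gave 925 calls over all genes in DESeq2 and 0 in edgeR. Without the replicate block no gene was called, the median log2 change at 23 °C was 0.45, and the genes with an unadjusted p under 0.05 numbered 4 in place of 11 between genotypes averaged and 0 in place of 3 for temperature in pwr-2. Leaving out each library in turn moved the median log2 change from 0.24 to 0.66 between genotypes at 23 °C, from -0.11 to 0.93 at 27 °C and from 0.17 to 0.71 averaged. With temperature it ran from -0.48 to 0.45 in Col-0, from -0.29 to 0.09 in pwr-2 and from -0.32 to 0.16 averaged, and for the interaction from -0.58 to 0.40. Both ends of 5 of these 7 ranges came from leaving out a replicate of Col-0 at 27 °C. Where 1 library was left in a group, the fit pooled the spread over the others. The cause was not tested. Each group had 2 libraries, so its spread rests on few values. Of the 33 genes, 23 had over 100 counts in every library. The others included CYCB1;1, CYCB1;2, CDKB1;1, KNOLLE and PCNA1, and the part of low counts in the spread was not tested.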
